A study of Macaca mulatta with 16 samples.

Results

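Open chromatin of naive CD4+ T cells was compared before and after cyclodextrin dosing in 2 rhesus macaques, RhDBCb (animal 1) and RhM22 (animal 2). The 4 libraries labelled CD4N were taken, of 16 in the series: 1 per animal before dosing (treatment given as none) and 1 per animal after it. Dosed animals received 2-hydroxypropyl-beta-cyclodextrin (Kleptose HBP parenteral grade, 15% w/w) under the skin, each day at 1 ml/kg and for at most 120 days. From peripheral blood, 10000 cells per population were sorted for ATAC-seq. The other 12 libraries hold memory CD4+, naive CD8+ and memory CD8+ cells of the same animals and times. The group before dosing is the only control, so dosing and elapsed time cannot be told apart. The labels give no age, sex, health status, sampling day or sort gate.

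Cyclodextrin is a ring of sugars that holds cholesterol in its cavity and can draw it out of membranes, where cholesterol-rich patches carry much of T cell receptor signalling. Naive CD4+ T cells have left the thymus without having met their antigen. They keep a chromatin landscape of quiescence and homing to lymph nodes, and a T cell that has met antigen opens many further elements that persist in its memory descendants. ATAC-seq marks open DNA by the cuts of a transposase, and a peak is a stretch where cuts pile up.

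Each library was deposited as its own peak list from the caller Genrich, and read depth is unknown. A missing peak therefore means not called in that list, and not closed chromatin. Overlaps of 1 bp or more joined the peaks of the 16 lists into 55449 regions, and a region counts as open in a list with a peak in it. Positions are in rheMac10. Genes, promoters, defining markers and sequences at the regions were not analysed here, because no annotation or genome of that build was used. The label was instead checked by likeness of the lists. The 3 lists nearest to each naive CD4 list, by the Jaccard index (bases shared over bases in either), were the other 3 naive CD4 lists, at 0.777 to 0.825. The nearest list of another population reached 0.758 to 0.776. Before and after lists of one animal had an index of 0.805 in animal 1 and 0.825 in animal 2, above the 0.788 between the animals before and the 0.798 between them after.

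Peaks were narrower after dosing in both animals, while their number hardly moved. Lists held 40251 and 40419 peaks before (animal 1, then animal 2, here and below) and 40842 and 40485 after, so they were longer by 591 and by 66. Counting only summits with a −log10 p of at least 3.42, the change was -513 and 278. Bases covered went from 62.6 and 61.9 Mb to 57.7 and 58.9 Mb, and both lists after lay below both lists before. Median peak width went from 1184 and 1176 bp to 1095 and 1116 bp. Peaks over 3 kb numbered 3960 and 3640 before and 2764 and 3096 after. The share of weak peaks, those with an area score under 300 where the caller's floor is 200, was 11.7% and 11.2% before and 10.6% and 10.5% after. With 2 pairs an exact two-sided sign-flip test cannot go below p = 0.5, so these list values carry no test.

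**Figure D1:**
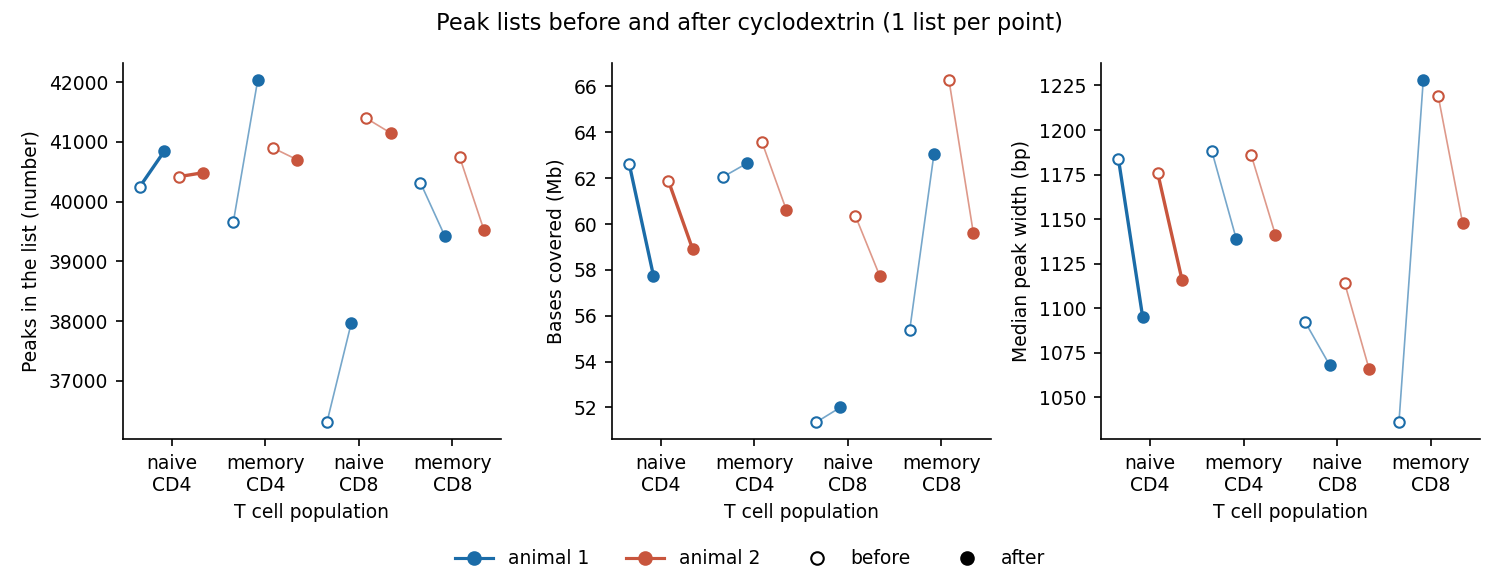
Number of peaks, bases covered (Mb) and median peak width (bp) of each of the 16 lists, before (open circles) and after (filled circles) dosing; axes do not start at 0. Both naive CD4 pairs are lower after in bases covered and width. Memory CD4 and naive CD8 pairs are also lower after in width. In both measures memory CD8 is higher after in animal 1 and lower in animal 2.

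Part of this narrowing was shared by other populations. Median peak width changed by -49 and -45 bp in memory CD4 lists and -24 and -48 bp in naive CD8 lists. In memory CD8 lists it changed by 192 and -71 bp, and in naive CD4 lists by -89 and -60 bp. Peaks over 3 kb were also fewer after in both animals in memory CD4 (-385 and -587) and naive CD8 lists (-285 and -326). In memory CD8 lists they changed by 1324 and -1453. Bases covered fell in both animals only in naive CD4 lists. At regions open in all 4 lists of a population, the median change in log2 width was -0.08 and -0.04 in naive CD4 cells (-5.10% and -2.73%). It was -0.0016 and -0.0402 in memory CD4 cells, 0.0023 and -0.0238 in naive CD8 cells, and 0.15 and -0.11 in memory CD8 cells. Whether the naive CD4 median differs from these was not tested. A test of single regions, given further below, cannot compare medians over all regions.

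Most of the naive CD4 landscape was the same at both times. Of 42190 regions open in any of the 4 lists, 31984 (75.8%) were open in all 4. A further 3816 (9.04%) were open in 1 list, 3767 (8.93%) in 2 and 2623 (6.22%) in 3. Animal 1 gained 2195 regions and lost 2228 between its lists, and animal 2 gained 1934 and lost 2222.

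Few of these changes were shared. Regions gained in both animals, closed in both lists before and open in both after, numbered 262, which is 0.621% of regions open in any list. Regions lost in both numbered 331, or 0.785%. Another 477 were gained in one animal and lost in the other, so shared changes outnumbered opposite ones 1.24 to 1. The sets moved with the definition: with lists cut to an equal 36307 peaks, 23 of the 262 were still gained and 66 of the 331 still lost, and with windows of 500 bp around summits 783 regions were gained and 654 lost. The animals themselves differed more often: 2697 regions (6.39%) were open at both times in one animal and at neither time in the other. Of the 1188 regions gained in animal 1 from both lists closed, 22.1% were gained in animal 2 as well, and 24.1% of the 1089 gained in animal 2 were gained in animal 1. Losses were shared more often, at 36.9% of 897 in animal 1 and 32.7% of 1013 in animal 2. The 2 starting pools differ in kind, since a loss starts from regions open in both animals, and the difference between gains and losses was not tested.

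Gained and lost regions were weak and narrow peaks. Their strength was read as the percentile of the area score, the area under the −log10 p curve of the peak, among all peaks of its list. Gained regions had a median percentile of 6.68 and a median width of 545 bp, and lost regions 7.95 and 559.5 bp. Over all peaks in regions open in any of the lists the medians were 52.2 and 1208 bp. An area score under 300 was found for 72.7% of gained peaks and 66.3% of lost peaks, against 10.04% overall. Regions with opposite changes in the 2 animals were alike in this, with a median percentile of 6.72 and 72.2% of peaks under 300. Only 28 of the gained regions (10.7%) and 56 of the lost (16.9%) had a summit −log10 p of at least 3.42 in both lists where they were open, which is 1 unit above the lowest summit of any list.

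The 10 strongest gained regions by mean percentile reached from the 7th to the 39th percentile in a list. At chr6:74042004-74043693 the list after held a peak of 1690 bp at percentile 39.3 in animal 1 and one of 690 bp at 12.04 in animal 2. None of the other 12 lists had a peak there. At chr1:213932298-213933452 the peaks lay at 36.9 and 7.10, again with none in the other 12 lists, and at chr11:124460736-124461476 at 13.2 and 24.2, with none either. In each of these 3 regions the peak of one animal ranked over 10 points above that of the other.

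More even gains were seen at chr9:115288217-115289524, with percentiles of 27.8 and 20.6 and widths of 1026 and 1039 bp, and at chr13:34437830-34438571, with 19.3 and 24.6. Narrower gains also cleared the stricter summit level, at chr13:65247555-65248165 (percentiles 21.5 and 18.2, summit −log10 p 3.69 and 3.73) and at chr15:1942680-1943233 (22.5 and 15.5, 3.87 and 3.704). The first was open in 11 of the other 12 lists and the second in 1. The remaining strong gains were chr20:44935428-44936020 (17.7 and 20.6), chr1:63599981-63600843 (18.4 and 19.6) and chr6:139522271-139523007 (7.80 and 29.6).

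Lost regions reached somewhat higher. At chr13:881382-883232 the lists before held peaks of 1851 and 1594 bp at percentiles 35.4 and 34.3, the most even pair among the strong losses. At chr12:48463073-48465001 they lay at 37.2 and 28.5, at chr2:8550869-8552122 at 22.7 and 40.3, and at chr1:43823643-43824626 at 35.0 and 26.0. The last of these had summit −log10 p values of 4.16 and 3.50 and was lost under every other definition of a region or list that was tried. At chr5:58072839-58085528 a peak of 5454 bp at percentile 54.3 in animal 1 stood against one of 791 bp at 1.91 in animal 2, so this loss was wide in animal 1 alone. The others were chr13:44562390-44563762 (30.9 and 25.02), chr6:136697907-136700713 (30.05 and 20.5), chr1:69786145-69786719 (31.3 and 18.3), chr17:1048692-1049911 (27.1 and 22.2) and chr20:28621777-28625889 (33.9 and 13.8). All 10 were open in at least 2 of the other 12 lists.

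Few of these regions had another within reach. Within 50 kb of another gained region lay 10 of the gained (3.82%), and 10 lay as near to a lost one (3.82%). Of the lost, 20 (6.04%) lay within 50 kb of another lost region and 10 (3.02%) of a gained one. Whether these shares differ from those of regions placed elsewhere was not tested. No run of 3 or more gained, or 3 or more lost, with gaps up to 50 kb was found. Chromosome X held 8 gained and 5 lost regions. Chromosome 17 held 1 gained and 10 lost, of 933 regions open there, and was chosen for mention after its values were seen.

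Gained regions were also open more often after than before in the other populations. Their lists helped set the borders of regions, but openness in them was not used to choose the gained ones. With regions merged from the 4 naive CD4 lists only, 262 of the 262 were still gained. In memory CD4 cells 30.5% and 35.9% of the 262 were open before and 50% and 41.6% after. The share was higher after in 6 of 6 pairs of population and animal, by 7.95 points on average (from 1.91 to 19.5). Over all 42190 regions it was higher in 3 of 6 pairs, by 0.881 points on average, and over the regions of opposite change in 3 of 6, by 1.99 points. For all regions and for those of opposite change, the pairs that rose were those of animal 1. The largest rises of gained regions were also in animal 1, in memory CD4 and naive CD8 cells. Both of these lists were longer after, and regions of opposite change rose there too, though by less. In animal 2 gained regions rose in every pair, while all regions and those of opposite change fell. Lost regions were higher after in 2 of 6 pairs, and changed by -3.17 points on average (from -13.9 to 5.74). Region by region, 41.6% of the gained were open in more lists after than before among the other populations, and 15.6% in fewer. For lost regions the shares were 18.4% and 31.7%. For regions of opposite change they were 31.7% and 25.8%, and for all regions 13.02% and 9.37%. The 12 lists come from the same 2 animals at the same 2 times, so shared blood draws and processing days cannot be told apart from shared biology.

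**Figure D2:**
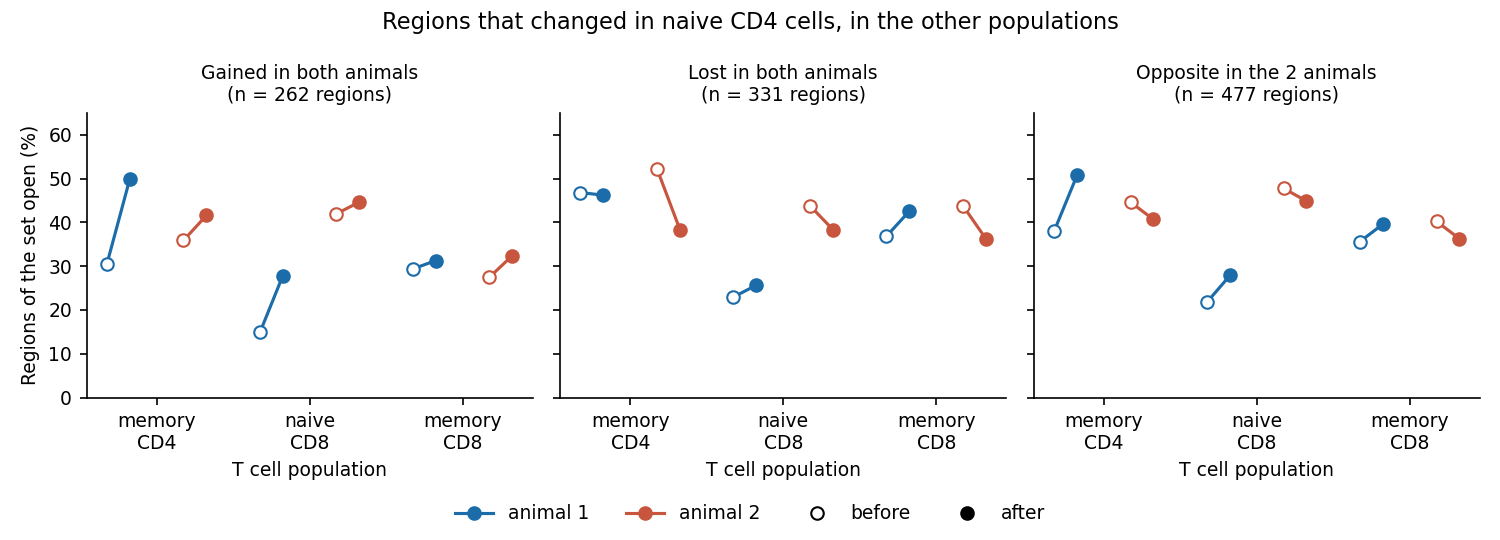
Share of the gained, lost and opposite regions of naive CD4 cells (in %) that were open in each of the other 6 pairs of lists, before (open circles) and after (filled circles) dosing. Gained regions are higher after in all 6 pairs, lost regions in 2 and opposite regions in 3.

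Of the 262 gained regions, 14 (5.34%) were also gained in both animals in memory CD4 cells, 6 (2.29%) in naive CD8 and 7 (2.67%) in memory CD8 cells. They are 3.56%, 2.87% and 2.5% of the regions gained there, and 0.922%, 0.507% and 0.644% of the regions open in any list of those populations were gained. Another 2, 0 and 2 of the 262 were lost in both animals in these populations. Of the 331 lost regions, 7 (2.11%), 3 (0.906%) and 1 (0.302%) were lost there as well, and 3, 1 and 3 were gained. The shares of regions lost there were 0.434%, 0.405% and 0.761%. In 3 populations at once, 3 regions were gained in both animals. The regions chr1:205762091-205762711 and chr3:175344915-175345367 were gained in naive CD4, memory CD4 and memory CD8 cells, and chr19:10966476-10967084 in naive CD4, memory CD4 and naive CD8 cells. Their naive CD4 peaks were weak, with percentiles of 3.64 and 2.52, 8.08 and 21.01, and 10.7 and 2.01.

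Regions that mark memory cells were open slightly less often in the naive CD4 lists after dosing. They were chosen by openness in CD8 lists alone, as the 2401 regions open in all 4 memory CD8 lists and in no naive CD8 list. Naive CD4 lists had 331 and 335 of them open before (13.8% and 14.0%) and 287 and 299 after (11.95% and 12.5%), and both lists after lay below both before. Memory CD4 lists had 46.1% to 53.8% open. Animal 1 lost 103 such regions and gained 59, and animal 2 lost 98 and gained 62. Of the 331 regions lost in both animals, 27 (8.16%) were of this kind, against 9 of the 262 gained (3.44%), 3.56% of the regions of opposite change and 1.19% of all regions open in naive CD4 lists. The strongest of the 27 were chr3:97713338-97715673, at percentiles 20.6 and 18.5, and chr2:6545544-6547597, at 17.5 and 15.0.

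Under the main definition of regions and lists, other marker sets moved in opposite directions in the 2 animals. Of 1713 regions open in all naive CD8 lists and in no memory CD8 list, 81.2% and 76.8% were open in naive CD4 cells before and 82.0% and 75.8% after. With lists of equal length and at the stricter summit level, the mean share of this set fell by more than here. So did that of the memory regions, as given below. Of 1596 regions open in all memory CD8 lists and in no memory CD4 list, 4.89% and 4.76% were open before and 5.26% and 4.07% after. Of 1512 with the reverse pattern, 80.2% and 80.0% were open before and 78.6% and 80.8% after. Fewer memory-type cells in the sort and less accessibility per cell cannot be told apart in such bulk libraries. The part of the sort in the lower share of memory regions was not tested.

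Signal strength at always-open regions leaned the same way. The 24333 regions open in all 16 lists were put into 5 equal bins by how far their area percentile in naive CD8 lists exceeded that in memory CD8 lists. In the bin most in favour of memory CD8 cells (4868 regions), the median percentile in naive CD4 cells changed by -1.06 and -0.736 points. In the next bins it changed by 0.312 and 0.279, by 0.501 and 0.407, and by 1.14 and 0.970 points, and in the bin most in favour of naive cells by 0.715 and 0.378. The bin of memory-type regions was the lowest and the fourth bin the highest in both animals.

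At the 31984 regions open in all 4 lists, area scores were ranked within each list among these same regions. The animals moved alike only weakly: changes in percentile had a standard deviation of 6.63 points in animal 1 and 5.60 in animal 2, and their Pearson correlation across regions was 0.161. For log2 width it was 0.0956. Regions are not replicates, so these are descriptions. Differences between the animals were more stable, since the difference before and the difference after correlated at 0.551 for percentile and 0.290 for width. A change of at least 10 points was found upward in both animals at 0.363% of regions, downward in both at 1.22% (389 regions), and opposite at 0.694% (222). By comparison, 7.13% (2280) differed by that much between the animals, in the same direction, at both times.

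**Figure D3:**
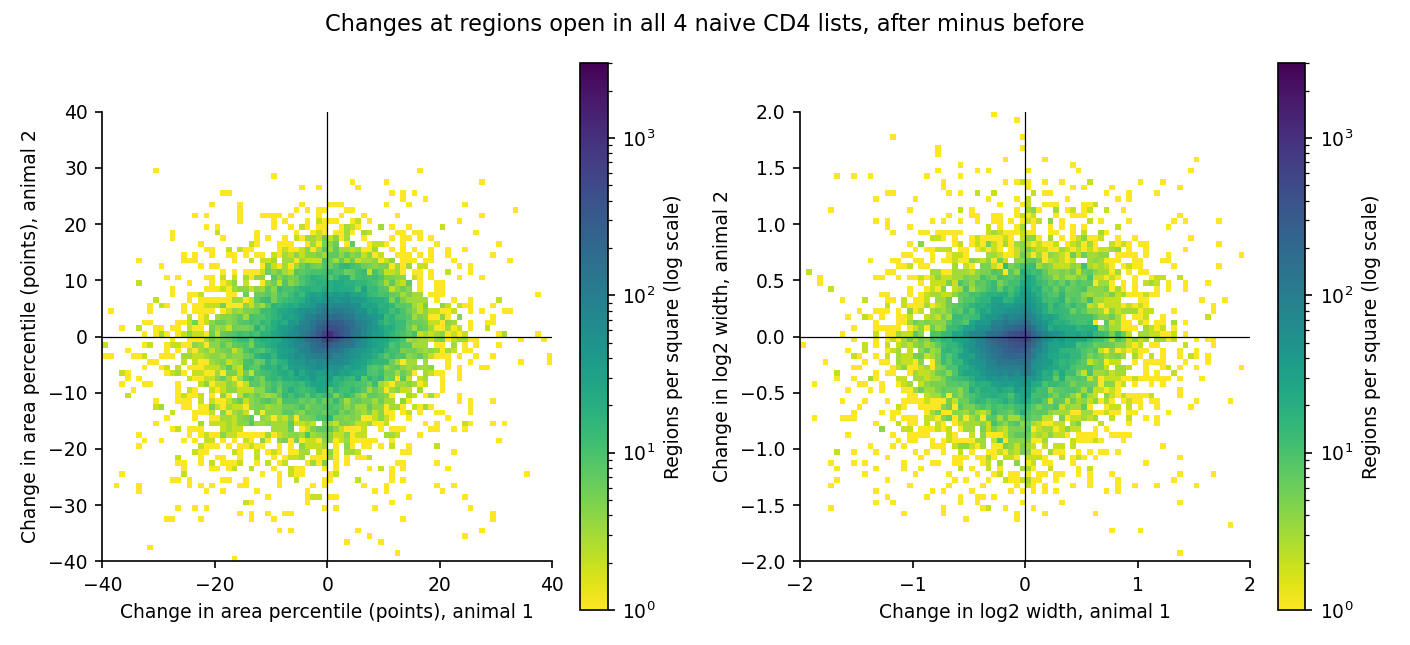
Change in area percentile (left, points) and in log2 width (right) at 31984 regions open in all 4 naive CD4 lists, animal 1 on the x axis and animal 2 on the y axis; colour gives the number of regions per square on a log scale, and 25 and 20 regions outside the axes are not drawn. The clouds are nearly round, and the width cloud is centred below 0 in both animals.

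No single region passed limma's moderated test with animal as a block (Benjamini-Hochberg threshold 0.05). The share called was 0% in each direction, for percentile, width and area per base alike. At unadjusted p under 0.05 there were 2274 of 31984 regions for percentile, 2632 for width and 2687 for area per base. In simulated data, 4.96%, 4.96% and 5.25% of regions without a change fell under 0.05 for these measures. The smallest adjusted p values were 0.0803, 0.606 and 0.0720. With 2 animals this fit had little power: in simulated data of the same comparison over 31984 regions it recovered 39.4% of shifts of 40 percentile points and none of the 4-fold width changes (2 on the log2 scale). Counts of 0 are therefore no evidence that regions stayed the same.

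Narrowing was spread over many regions. Covered width was smaller after in 67.0% of regions in animal 1 and 61.4% in animal 2, and 13863 (43.3%) were narrower in both animals against 4693 (14.7%) wider in both. It differed by width. With the regions in 4 equal bins by mean width, in the narrowest bin median widths were 606 and 616 bp before and 622.5 and 620 bp after. In the third bin they were 1856 and 1819 bp before and 1681 and 1711 bp after, and in the widest 3130 and 3067 bp before and 2846.5 and 2947 bp after. In the widest bin 82.6% of regions were narrower after in animal 1 and 67.4% in animal 2.

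**Figure D4:**
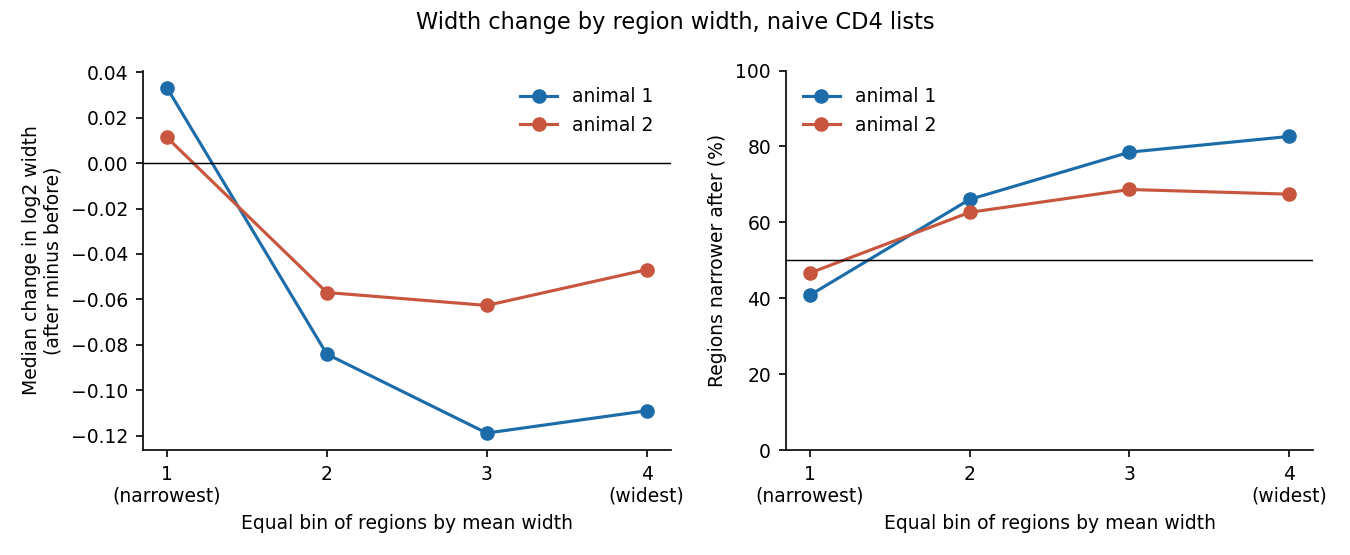
Median change in log2 width (left) and share of regions narrower after dosing (right, %) in 4 equal bins of the 31984 shared regions by their mean width, for each animal. The narrowest bin lies above 0 and the other 3 below it in both animals.

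Both edges drew in. In the 27431 regions (85.8%) with exactly 1 peak in every list, the left edge moved inward by a median of 13 and 6 bp and the right edge by 12 and 6 bp. Both edges were further in after at 38.9% and 31.5% of these regions and both further out at 16.7% and 17.8%. From animal 1 to animal 2, the shares were 27.7% in and 24.1% out before dosing, and 22.7% in and 28.6% out after it. Summits stayed in place, with a median move of 10 bp in either animal, and 84.1% and 87.8% lay within 100 bp.

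Shared regions also held more peaks after more often than fewer. A higher number can be a split peak or a further peak called in the region. A list after held more peaks than the list before within 1433 shared regions in animal 1 and 1153 in animal 2, and fewer within 921 and 839. Both animals had more at 382 regions and fewer at 163, while 343 went opposite ways. A single peak became several in both animals at 252 regions (0.788%), and several became a single one at 0.381% of regions. Splitting moves the area percentile, because the highest peak of the region was ranked. Among the 16 regions with the largest shared percentile shifts, 2 had 1 peak in every list, 5 of the 8 falling ones had more peaks after in both animals and 5 of the 8 rising ones fewer. The excess of regions with more peaks after was also seen in memory CD4 cells (972 against 935 fewer, and 1276 against 778). In naive CD8 cells it was 924 against 852 and 999 against 765. In memory CD8 cells the counts were 751 against 1666 in animal 1 and 1767 against 1119 in animal 2.

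The clearest fused regions were chr17:11576947-11580076 and chr15:14889901-14894143. At the first the percentile was 67.4 and 67.6 before and 91.8 and 91.3 after, with 2 peaks in each list before and 1 in each after (mean change 24.1 points, 95% interval 21.2 to 26.9, limma adjusted p 0.0803). At the second it was 76.9 and 77.1 before and 97.7 and 96.3 after, with the same change in number of peaks and an unchanged width of 3788, 3794, 3818 and 3794 bp over the 4 lists. At chr6:14832482-14838306 the opposite was seen: 1 peak of 4936 and 4896 bp before gave way to 3 peaks after, and the percentile of the highest went from 90.5 and 95.2 to 62.5 and 62.4 (adjusted p 0.0803). When the areas of all its peaks were summed, its percentile changed by 0.28 points.

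Percentile shifts in regions with 1 peak in every list do not have this feature. At chr7:78887068-78888686 the percentile among all shared regions was 32.3 and 44.0 before and 0.37 and 6.66 after, and the peak was 1137 and 1563 bp wide before and 508 and 571 bp after. Its area score was 890 and 1336 before and 214 and 362 after, with no overlap between the times. At chr13:81848028-81849700 the percentile was 5.21 and 1.11 before and 32.5 and 22.6 after, and the area score 320 and 235 before and 933 and 675 after. Neither passed on the percentile scale (limma adjusted p 0.199 and 0.410).

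On a log2 scale, with area scores centred on the list median, some of these regions did pass. Among the 27431 regions with 1 peak in each list, 195 were called, 48 higher (0.175%) and 147 lower after (0.536%). When the log2 scale was fitted over all shared regions instead, only 1 called region had 1 peak in each list. So the number called depended on which regions were fitted together. The log2 scale and the single-peak set were combined after the data were seen. The fit to that set took one spread for all regions of like level, which the percentile fit did not. It was not simulated, and the values below come from it. The fall at chr7:78887068-78888686 was -2.004 ± 0.28 (SE) with a limma adjusted p of 3.9e-09, and the rise at chr13:81848028-81849700 was 1.504 ± 0.29 with an adjusted p of 0.00031. These regions were chosen for their shift in the rank of the same scores, so their p values are no independent support. Other single-peak regions with large shared shifts in rank included, on the falling side, chr7:42286207-42288339, with area scores of 735 and 913 before and 203 and 433 after, and chr15:16818322-16819675, with 996 and 844 before and 430 and 331 after. On the rising side were chr19:18352591-18354320, with 385 and 454 before and 940 and 788 after, and chr16:17364386-17365384, with 350 and 322 before and 764 and 659 after.

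Among the largest shared gains of width were several short peaks. At chr6:139536155-139537048 the width was 242 and 246 bp before and 691 and 745 bp after, at chr1:20385262-20385858 it was 231 in both lists before and 589 and 576 bp after, and at chr5:149451374-149452004 248 and 222 bp before and 586 and 583 bp after. All 3 had 1 peak in each list, and all were weak in both lists before, by the area score limit used above. A wider peak did not always have a larger area score. The score fell in animal 1 at the first of these regions and in animal 2 at the third. At the second it rose in both animals. At the third the percentile of area per base fell in both animals. Others were wider at the start, as chr3:156129295-156132904, with 555 and 473 bp in 1 peak before and 1543 and 1331 bp in 2 peaks after, and chr4:46647866-46650200, with 540 and 750 bp before and 1210 and 1828 bp after.

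Among the largest losses of width, some regions had fewer peaks after, as chr9:111075720-111078857, with 2820 and 1654 bp in 2 peaks before and 845 and 566 bp in 1 peak after. In others a single peak was narrower, as at chr6:54440233-54441308, with 948 and 1059 bp before and 382 and 376 bp after, and at chr7:42290691-42294954, with 2234 and 3650 bp before and 948 and 1367 bp after. The widest region of the group, chr12:91358397-91376806, had 13089 and 12283 bp covered before, in 2 and 5 peaks, and 5307 and 4744 bp after, in 4 and 2 peaks. Its summed area passed limma's test also on the percentile scale, the only region to do so, with an adjusted p of 0.0193. The fall was not particular to naive CD4 cells. In memory CD4 cells the summed area was 17888 and 12225 before and 8490 and 6824 after. In memory CD8 cells it was 2340 and 1051 before and 834 and 845 after, and naive CD8 lists had no peak there. For width alone the adjusted p was 0.606 at each of these regions.

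Whether a shift in naive CD4 cells differed from the mean shift of the other 3 populations was tested at the 24333 regions open in all 16 lists, with each animal within each population as a block. For width no region was called (0%). This contrast was not simulated, so that count is no evidence that width changes were alike between populations. For area percentile 5 were called lower in naive CD4 cells (0.0205%) and none higher. The contrast was -38.4 points at chr6:14832482-14838306, -21.9 at chr15:28459999-28472606, -16.6 at chr4:123936562-123944218, -15.6 at chr3:13284650-13290210 and -12.6 at chr6:66818638-66823086. All were strong, wide regions, at percentiles 85.5 to 98.1 of the always-open regions before and 51.3 to 78.4 after.

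In 4 of the 5, one naive CD4 peak in each list before was 2 or 3 peaks in each list after. The gaps overlapped between the animals. At chr6:66818638-66823086 naive CD8 cells also had 1 peak in each list before and 2 in each after. At chr3:13284650-13290210 naive CD8 cells had 2 peaks in each list at both times. At chr4:123936562-123944218 the summed area was 7810 and 8022 before and 7090 and 7354 after, so it moved far less than the rank of its highest peak. With summed areas 0 of the 5 were called. Without the libraries of animal 2 no region was called, and without those of animal 1 there were 10 calls. In these fits naive CD4 cells have 1 library at each time, and their spread is taken to be that of the other populations.

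**Figure D5:**
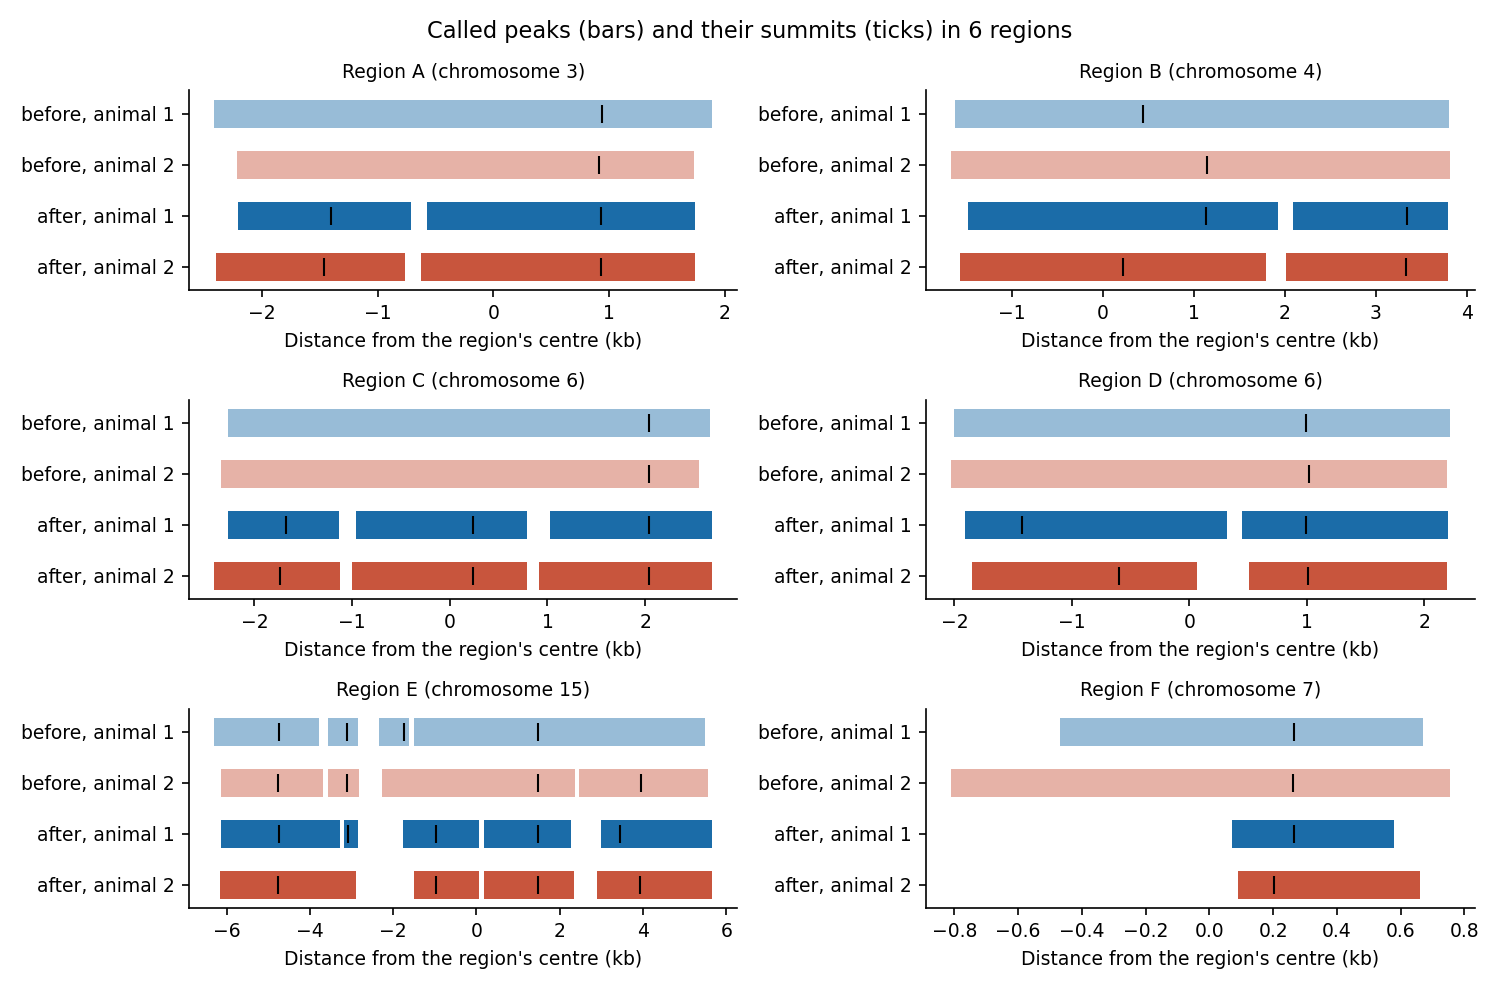
Extent (bars) and summits (ticks) of the called peaks in the 4 naive CD4 lists, by distance from the region's centre (kb): A is chr3:13284650-13290210, B chr4:123936562-123944218, C chr6:14832482-14838306, D chr6:66818638-66823086, E chr15:28459999-28472606 and F the single-peak region chr7:78887068-78888686. A to D show 1 peak in each list before and 2 or 3 in each after, and F shows a narrower peak after in both animals.

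Shifts at these 24333 regions were also set beside those of the other populations, as Pearson correlations across regions that are a description. For percentile, the naive CD4 changes of the 2 animals correlated at 0.207. Within animal 1, the naive CD4 change correlated with that of memory CD4 cells at 0.421, of naive CD8 cells at 0.387 and of memory CD8 cells at -0.129. Within animal 2 the values were 0.234, 0.218 and 0.182. Across animals, naive CD4 cells of animal 1 correlated with memory CD4 cells of animal 2 at 0.300, and naive CD4 cells of animal 2 with memory CD4 cells of animal 1 at 0.136. For width, the naive CD4 changes of the 2 animals correlated at 0.0998. Within animal 1 the values in the same order were 0.218, 0.218 and -0.0639, and within animal 2 they were 0.0917, 0.0526 and 0.0834. No single order of populations or animals held for both measures. Libraries of an animal at one time may share a draw and a processing day, which the labels do not give. The titles give animal 2 one name, while its file names carry a different number for each population, so its match across populations is less sure than its pair of times.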

How the data were processed

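Per the submitters' processing notes, cutadapt 1.18, Bowtie2 2.3.4.1 and Genrich 0.6 were used with the build rheMac10, with settings not given in the sources used here. As deposited, lists (1 per library) give each peak's area score and summit −log10 p as the authors' caller wrote them, without a q value. Both belong to their own list, so scores were ranked or centred within lists. Merging took overlaps of 1 bp or more over all 16 lists. Pairing came from the animal names in the titles. As a check, differences between the animals before and after correlated at 0.551 (percentile).

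Width is the bases covered by peaks of a list in the region. limma 3.58.1 (R 4.3.3, moderated test with trend) was fitted over all regions of a comparison, and tested on simulated data. Named regions are the 10 gained and 10 lost with the highest mean percentile, and the 8 per direction with the largest smaller shift of the 2 animals, for percentile and width; those for single-peak regions were added. Members, lists and rules were chosen with earlier results of these data known. Alternatives are listed with their effects. Gene lists and markers that need an annotation were not run. Python 3.11.15, pandas 2.3.3 and bedtools 2.31.1 were used.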

Additional observations from a re-analysis of the deposited data

Results flagged for a closer look

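Numbers of peaks moved in opposite directions in naive CD4 and memory CD8 cells. Naive CD4 lists were longer after by 591 peaks in animal 1 and by 66 in animal 2, while for memory CD8 lists the change was -890 and -1225. At the stricter summit level (−log10 p of at least 3.42) the naive CD4 change was -513 and 278, so its direction turned in animal 1. The difference was not tested, and list length also moves with read depth, which is unknown.

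The naive CD4 change in area percentile differed from the mean change of the other populations at 5 always-open regions by limma's test. That test takes pairs from the same animals as independent. The difference was -15.6 points at chr3:13284650-13290210, -16.6 at chr4:123936562-123944218, -38.4 at chr6:14832482-14838306, -12.6 at chr6:66818638-66823086 and -21.9 at chr15:28459999-28472606. At the first 4 of these the naive CD4 peak was split in both lists after, and at the last the number of peaks was 4 and 4 before and 5 and 4 after. At chr6:66818638-66823086 the peak was split after in both animals in naive CD8 cells as well.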

How the results depend on the processing

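Gained and lost regions depended on how a region or list was defined. Of the 262 gained, 23 were still gained with lists of equal length (36307 peaks) and 28 with summit −log10 p of at least 3.42; of the 331 lost, 66 and 56 were still lost. Counts were 434 gained and 509 lost when peaks had to cover at least 50% of a region, and 783 and 654 with windows of 500 bp around summits. With 1 animal left out they were 1934 to 2195 gained and 2222 to 2228 lost. The ratio of shared to opposite changes was 1.25 to 1.45 under all 6 other definitions. Of the 10 named gained and 10 named lost regions, 2 and 1 held under all 6.

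The share of regions called for percentile shifts went from 0% to 0.378% on the log2 scale (18 higher, 103 lower), 0.711% on it with 1 peak in each list (48 and 147), 0.310% with log2 summed areas (9 and 90), 0.0031% with summed percentiles (1 region) and 0.0411% with the spread of all 16 libraries (1 and 9, all with a changed number of peaks). Nearly all calls on the log2 scale over all shared regions were at regions with a changed number of peaks. Only 1 of them had 1 peak in each list. Most calls with log2 summed areas were also at regions with a changed number of peaks. The share called for area per base went from 0% to 0.0182% with 1 peak in each list (3 and 2). Without the replicate block, calls stayed at 0 for percentile, width and area per base, and for the difference from other populations they were 8 for percentile and 0 for width. The 5 calls of that difference became 1 without a trend in the spread, 0 with 1 peak in each list (which leaves these 5 out), 0 with summed areas, and 0 to 10 with 1 animal left out (0 without animal 2, 10 without animal 1, with the spread of naive CD4 cells taken from the other populations). At chr6:14832482-14838306 summed areas turned the change to 0.28 points and the contrast to 1.55.

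The mean change in number of peaks was 328.5, but -117.5 at the stricter summit level (-513 and 278). The share of memory-type regions open changed by -1.67 points on average, by -1.98 with lists of equal length, -2.47 at the stricter level and -2.68 with 50% coverage. For naive-type regions it was -0.058, and -1.53, -1.30 and 0.14 in the same order. Simulated width changes were not recovered at any size tried, so the width test limits what a count of 0 can say.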

Other observations

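Among the named regions, 3 pairs lay within 50 kb of each other, which was noticed after their values were seen. On chromosome 7, the region chr7:42286207-42288339, whose area score was 735 and 913 before and 203 and 433 after, lies 2351 bp from chr7:42290691-42294954, which narrowed from 2234 and 3650 bp to 948 and 1367 bp. On chromosome 6, the gained region chr6:139522271-139523007 lies 13147 bp from chr6:139536155-139537048, which widened from 242 and 246 bp to 691 and 745 bp. The area score of the widened region was 265 and 222 before and 220 and 392 after, so it fell in animal 1. Also on chromosome 6, the lost region chr6:136697907-136700713 lies 33923 bp from chr6:136734637-136738580, covered over 3944 and 2653 bp before and 1253 and 1079 bp after.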
